A study of Mus musculus with 8 samples.

Results

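The genes that hold epithelial cells together were followed in mouse embryonic stem cells after knockdown of Mkrn1: the cadherins, the claudins, occludin and the zonula occludens scaffolds, the desmosome genes, the connexins, Epcam, and the repressors Snai1, Snai2, Zeb1 and Zeb2. Members were taken by gene symbol from the platform annotation, and 86 of the 19937 genes with a probe set of their own were members. They comprised 23 cadherins, 28 claudins, 3 genes of the tight junction scaffold and occludin, 12 desmosome genes, 15 connexins, 4 repressors and Epcam. Another 2 symbols, Cldn34c1 and Dsg1a, were named only on probe sets shared with other genes and were not analysed.

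All cells were R1, an established line of male mouse embryonic stem cells (129X1 x 129S1) derived from the inner cell mass of a blastocyst, kept with LIF and 15% serum. The control group (shGFP, 4 arrays, numbered 1, 3, 5 and 7) received a pLKO.1 plasmid with a hairpin against GFP, and the knockdown group (shMKRN1, 4 arrays, numbered 2, 4, 6 and 8) the same plasmid with a hairpin against MKRN1, an E3 ubiquitin ligase. Both groups were transfected transiently with 2 µg of plasmid 48 h after seeding, put under 2 µg/mL puromycin for 4 days and lysed on day 6. Each group therefore stands for 1 hairpin in 1 line, and only cells that survived selection were measured. Whether a group's arrays stem from independent transfections is not stated in the labels. The p-values therefore reflect the variation among these samples and may hold technical variation alone.

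The hairpin is shown because the hairpin is what differs between the groups. The labels give its 21 bases as follows, with no part in capitals.
shMKRN1: gcgagatgttgcttatgcttt

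As background, cadherins join neighbouring cells through calcium-dependent contacts and are anchored to actin by catenins. Claudins and occludin seal the tight junction, desmosomes tie the keratin network of 1 cell to that of the next, and connexins form the channels of gap junctions. E-cadherin (Cdh1) is the main cadherin of embryonic stem cells, where it also helps to keep the cells undifferentiated. The zinc finger factors of the Snail and Zeb families bind E-boxes of the form CAGGTG and repress Cdh1 and other epithelial genes when cells leave an epithelium, as they do at the primitive streak.

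Because such repressors bear on the promoters of the members, the bases upstream of the start site were read from the RefSeq promoter table (GRCm38.p6). That source held 55 of the 86 members, and Cdh1 and Snai2 were not among them. CAGGTG was searched on both strands (CACCTG on the other), within 250 bases before and 50 bases after each start. It was present in 20 of 74 member promoters (27%) and in 6640 of 32851 promoters in all (20.2%). Per gene, 16 of 55 members (29.1%) held it in at least 1 promoter, against 22.6% of all 27025 genes. The 3 sequences below are the 250 bases upstream of an epithelial surface gene, of a claudin and of the cadherin that changed most, with each match in capitals.
Epcam: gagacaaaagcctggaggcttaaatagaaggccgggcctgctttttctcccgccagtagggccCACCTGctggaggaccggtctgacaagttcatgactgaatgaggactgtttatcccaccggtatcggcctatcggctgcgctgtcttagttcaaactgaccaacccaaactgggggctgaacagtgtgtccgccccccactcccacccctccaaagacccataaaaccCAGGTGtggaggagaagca
Cldn7: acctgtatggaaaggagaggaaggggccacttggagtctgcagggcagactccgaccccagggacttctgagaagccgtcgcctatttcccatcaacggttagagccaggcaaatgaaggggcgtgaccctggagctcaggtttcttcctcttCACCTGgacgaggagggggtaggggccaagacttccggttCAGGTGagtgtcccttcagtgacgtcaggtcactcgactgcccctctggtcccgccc
Cdh9: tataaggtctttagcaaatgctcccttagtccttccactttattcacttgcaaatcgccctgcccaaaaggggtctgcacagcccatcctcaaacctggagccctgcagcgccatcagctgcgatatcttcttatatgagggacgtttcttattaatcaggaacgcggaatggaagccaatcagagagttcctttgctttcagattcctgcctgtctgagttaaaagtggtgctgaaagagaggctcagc

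The Epcam stretch is chr17:87635729-87635978 on the plus strand and holds 2 matches, which begin 187 and 19 bases before the start site. That of Cldn7 is chr11:69965171-69965420 on the plus strand, the only 1 of its 2 listed start sites with matches upstream, at 97 and 57 bases before it. The stretch of Cdh9 is chr15:16728665-16728914 on the plus strand and holds none of these letters. A match is a description of the sequence and says nothing about binding. Among the 16 members with a match, 9 had a higher mean in shMKRN1 and none was called. Of the 39 members without a match, 1 was called (Cdh9). The other called member, Snai2, had no promoter to search. The median log2 change was 0.01 with a match and -0.04 without.

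Values are log2 expression from the RMA method, in which each array is background-corrected and brought to a common scale. A change was called where limma gave an adjusted p under 0.05, with p-values adjusted by Benjamini-Hochberg over all 19937 genes. Array medians lay between 7.14 and 7.24, and arrays shGFP 7 and shMKRN1 8 stood apart from the rest of their groups on the leading principal component (37.6% of the variance). All 10 stem cell markers examined, among them Pou5f1, Sox2 and Zfp42, lay above the level that 95% of 1194 silent olfactory and vomeronasal receptor genes did not reach (6.54), and Nanog alone of the 10 was called (0.25). Of the 86 members, 51 had a group mean above that receptor level, and the other 35 could not be told from silent genes. Mkrn1 itself lay between 10.34 and 10.51 in shGFP and between 9.81 and 9.88 in shMKRN1. It fell to 66.2% of the control level (95% interval 61% to 71.7%; limma adjusted p = 0.000767; exact permutation p = 0.0286, the smallest that 70 assignments of the arrays can give).

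Few junction genes were called, and their share was not above that of all genes. Of 86 members, 2 were called, both lower in shMKRN1: Cdh9, a cadherin of the nervous system, and Snai2, a Snail family repressor. That is 2.33% of members, against 4.49% of all genes, of which 3.66% were higher and 0.838% lower. No member was called higher by limma. At an unadjusted p under 0.05 there were 6 members higher and 10 lower, 16 in all (18.6%), against 19.5% of all genes (13.7% higher and 5.78% lower). The groups did not overlap for 10 members (11.6%), 8 of them lower, against 14.1% of all genes (10.6% higher and 3.51% lower). At each of these cut-offs decreases outnumbered increases among members, while increases outnumbered decreases among all genes. That contrast was not tested, and among called members it depended on the fit. Quantile normalization and median centring each gave 1 member higher and 1 lower. With genes above the median level only, 2 were called higher and 1 lower. In the other fits that called any member, decreases outnumbered increases. Members also held more silent genes, with 51 of 86 above the receptor level against 14036 of 19937 genes.

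Most members differed little between the groups. The median log2 change of the 86 was -0.02 (quartiles -0.09 and 0.03), beside 0.01 for all genes (quartiles -0.07 and 0.09). The sign of that median turned with the scaling: it was 0.01 after quantile normalization and 0.01 after median centring. The median of all genes moved as well, to 0.02 and 0.03, and stayed above that of the members. The change was under 0.1 in size for 55 members (64%, against 61.4% of all genes). The 95% interval lay within 1.5-fold in both directions for 81 of the 86 members, against 19482 of all 19937 genes. The exceptions were Cdh9, Snai2, Zeb2, Cdh11 and Gjd4. Apart from Gjd4, every member that could not be told from silent genes was among the 81. Intervals are those of limma for each gene alone, and RMA understates changes of dim genes.

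**Figure D1:**
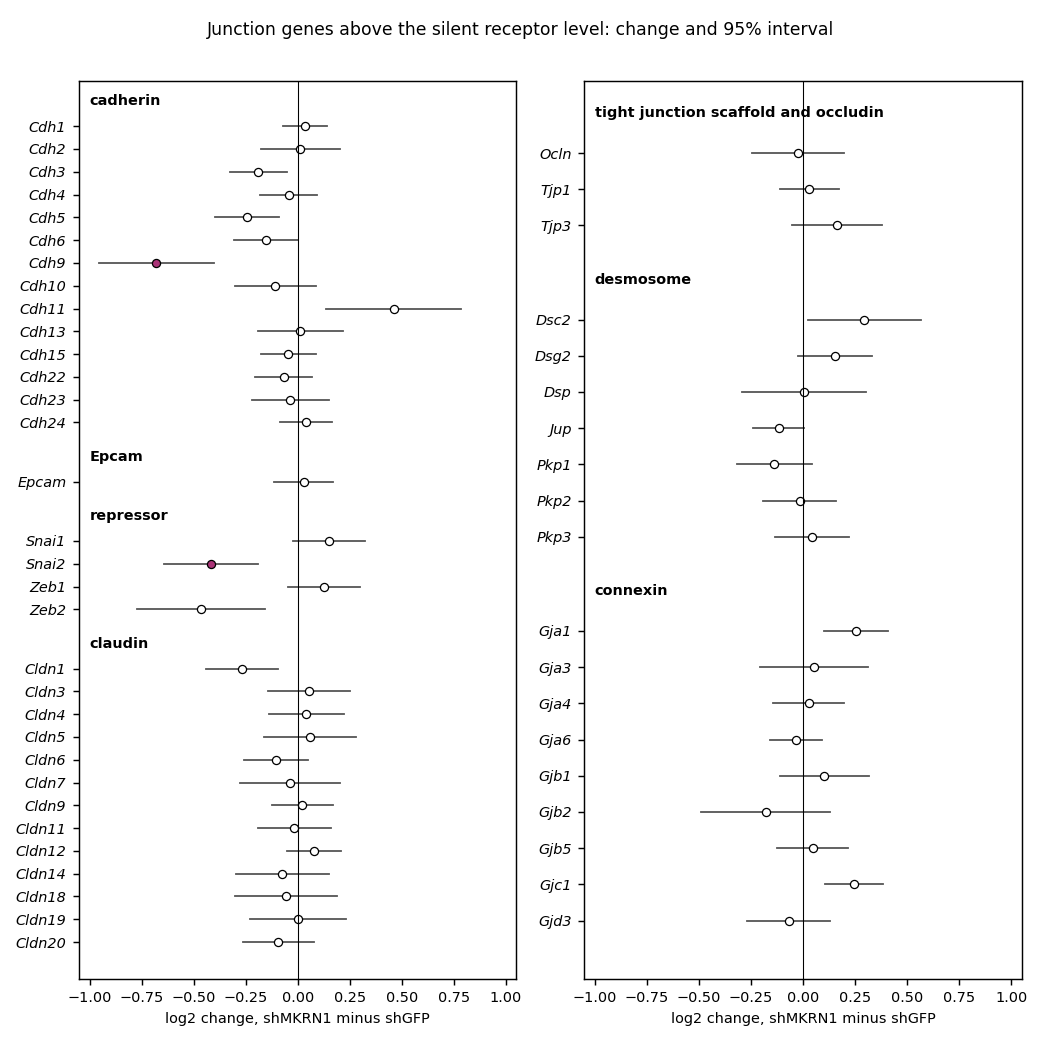
Log2 change, shMKRN1 minus shGFP, of the 51 junction genes with a group mean above the silent receptor level, grouped by role. Circles are limma estimates, lines their 95% intervals and filled circles the genes called at an adjusted p under 0.05. Cdh9 at -0.68 and Snai2 at -0.42 are the only filled circles, and most other circles lie near 0.

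Among the cadherins, E-cadherin was almost the same in every array. Cdh1 (Entrez gene 12550) read 11.80, 11.89, 11.91 and 11.89 in shGFP and 11.89, 11.93, 11.91 and 11.89 in shMKRN1. The groups overlapped, and the pooled SD within groups, 0.037, was the smallest of the 51 members above the receptor level, where the median was 0.124. The log2 difference was 0.04 (SE 0.047; limma adjusted p = 0.754; exact permutation p = 0.2), which is 102% of the control level with a 95% interval of 95.3% to 110%. N-cadherin (Cdh2), which replaces E-cadherin in many mesenchymal and neural cells, read 9.37, 9.31, 9.31 and 9.18 in shGFP and 9.54, 9.31, 9.13 and 9.23 in shMKRN1. Its groups overlapped fully, and the difference was 0.01 (95% interval -0.18 to 0.20; limma adjusted p = 0.963; exact permutation p = 0.943).

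Cdh9 (Entrez gene 12565) changed most of all members. Its levels were 7.55, 7.62, 7.79 and 7.33 in shGFP, and 6.90, 7.20, 6.84 and 6.63 in shMKRN1. Every shMKRN1 array lay below every shGFP array, by 0.13 at the closest. In log2 units it fell by 0.68 (SE 0.12; limma adjusted p = 0.0162), to 62.4% of the control level, with a 95% interval of 51.5% to 75.6%. Its call was lost without shMKRN1 2 (adjusted p = 0.0533), shGFP 3 (0.0605) or shMKRN1 6 (0.0578), and it kept its call in 12 of the 15 other fits in which it was measured.

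P-cadherin (Cdh3), a classical cadherin of placenta and epidermis, read 9.74, 9.85, 9.82 and 9.97 in shGFP and 9.72, 9.62, 9.69 and 9.60 in shMKRN1. The groups did not overlap, but by only 0.02, and the difference of -0.19 (SE 0.060; limma adjusted p = 0.115) did not pass. VE-cadherin (Cdh5), the cadherin of endothelium, read 7.33, 7.41, 7.34 and 7.27 against 7.25, 7.15, 6.95 and 7.03. All 4 shMKRN1 values were lower, and the difference was -0.24 (SE 0.070; limma adjusted p = 0.0826). For Cdh6, a type II cadherin of kidney and neural crest, the values of 7.19, 7.29, 7.14 and 7.20 in shGFP overlapped with 7.10, 6.90, 7.02 and 7.20 in shMKRN1 (-0.15; limma adjusted p = 0.255).

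Cdh11, a cadherin of mesenchyme and bone, had the largest positive difference of all members and the widest spread, with a pooled SD of 0.254. It read 6.93, 7.02, 6.66 and 6.57 in shGFP and 7.63, 7.31, 7.12 and 6.96 in shMKRN1. Only shMKRN1 8 fell inside the shGFP range. The difference of 0.46 (SE 0.15; limma adjusted p = 0.111; 95% interval 0.14 to 0.79) did not pass in any of the 15 other fits, whose adjusted p-values lay between 0.0606 and 0.229. In all, 17 of the 23 cadherins had a lower and 6 a higher mean in shMKRN1, with a median change of -0.05. Of the 23, 9 did not exceed the receptor level in either group.

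The genomic neighbours of Cdh9 were not called. In the RefSeq order of protein-coding genes (GRCm38.p6), Cdh6, Cdh9, Cdh10 and Cdh12 follow each other on chromosome 15. Beside the -0.68 of Cdh9, the changes were -0.15 for Cdh6, -0.11 for Cdh10 and 0.12 for Cdh12, the last below the receptor level in both groups. On chromosome 8, Cdh8, Cdh11 and Cdh5 are neighbours and differed by -0.10, 0.46 and -0.24, and the adjacent Cdh3 and Cdh1 by -0.19 and 0.04. Members formed 20 such adjacent pairs, and Cdh9 was the only called gene in any of them.

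Of the repressors of epithelial genes, Snai2 fell, Zeb2 had a lower mean in shMKRN1 and Snai1 and Zeb1 a higher one. Snai2 (Entrez gene 20583), also known as Slug and expressed in neural crest and mesenchyme, read 7.74, 7.78, 7.54 and 7.48 in shGFP and 7.43, 7.19, 7.28 and 6.98 in shMKRN1. The groups were apart by 0.05. Snai2 fell by 0.42 (SE 0.10; limma adjusted p = 0.0488) to 75% of the control level, with a 95% interval of 64.1% to 87.7%. This call lay at the threshold: it was lost with quantile normalization (adjusted p = 0.0562), with median centring (0.0562) and with adjustment over every probe set (0.0529). It was also lost when shGFP 1, 3 or 5 or shMKRN1 4, 6 or 8 was left out (adjusted p between 0.0663 and 0.14).

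Zeb2, a zinc finger homeobox repressor of neural crest and neural tissue, had a difference of similar size but a wider spread. It read 7.95, 7.49, 7.35 and 7.27 in shGFP and 7.23, 7.13, 6.94 and 6.90 in shMKRN1. Every shMKRN1 array was lower than every shGFP array, with shGFP 1 highest. The difference of -0.47 (SE 0.14, limma adjusted p = 0.0917, 95% interval -0.77 to -0.16) did not pass. Zeb2 passed in 2 of the 15 other fits, with a variance trend and with array weights (smallest limma adjusted p = 0.0179).

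Snai1, a direct driver of the loss of E-cadherin in the gastrulating embryo, read 8.98, 8.90, 8.67 and 8.98 in shGFP and 9.12, 8.94, 9.02 and 9.06 in shMKRN1. The groups overlapped in shMKRN1 4, and the difference was 0.15 (SE 0.077; limma adjusted p = 0.328; exact permutation p = 0.114). Zeb1 read 8.44, 8.43, 8.22 and 8.24 against 8.63, 8.42, 8.38 and 8.39, a difference of 0.13 (limma adjusted p = 0.423). Of these 4 genes 1 was called, and differences between them were not tested.

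**Figure D2:**
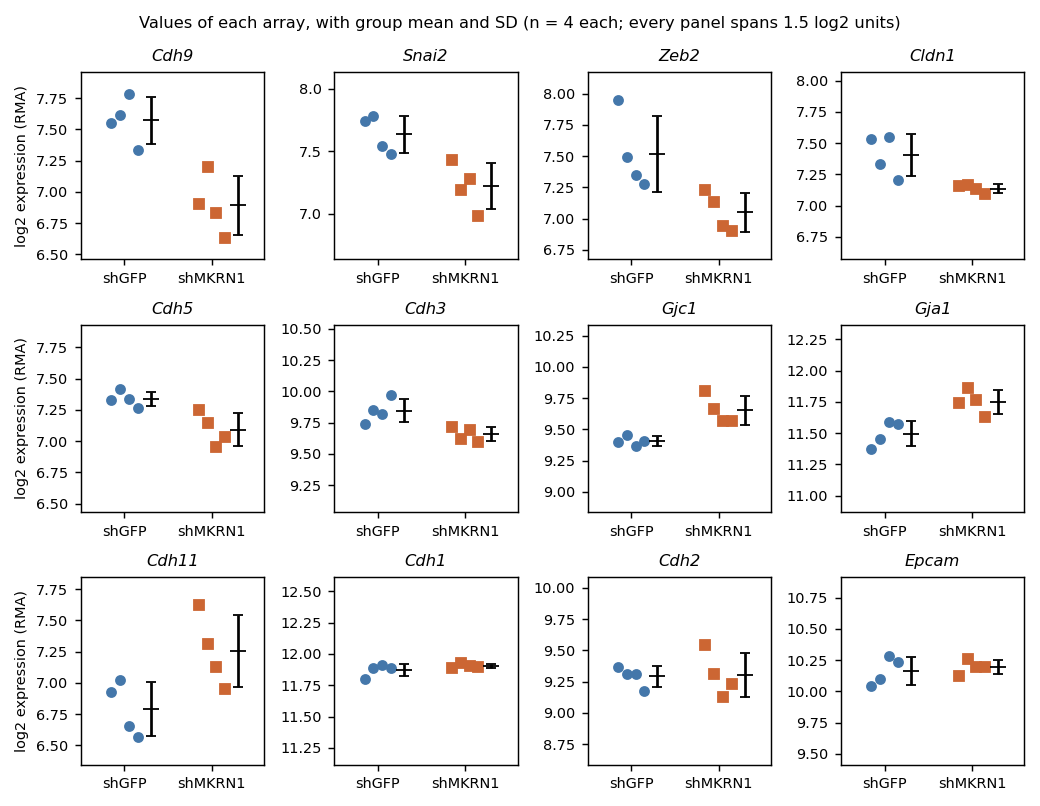
Log2 expression of 12 junction genes in each array: blue circles are the 4 shGFP arrays, orange squares the 4 shMKRN1 arrays, and the bar beside them the group mean with its SD. Panels have the same height of 1.5 log2 units, so the gap of Cdh9 (7.57 against 6.89) can be set beside the level course of Cdh1 (11.87 against 11.91).

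Epcam, an adhesion molecule of epithelia that stem cells carry at their surface, showed no difference beyond its spread. The values were 10.05, 10.10, 10.28 and 10.23 in shGFP and 10.13, 10.26, 10.19 and 10.19 in shMKRN1. All shMKRN1 arrays lay within the shGFP range. The difference was 0.03, with a 95% interval of -0.11 to 0.17 (limma adjusted p = 0.859).

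None of the 28 claudins was called by limma, and 3 had an unadjusted p under 0.05, all lower in shMKRN1: Cldn1, Cldn23 and Cldn34b2, of which Cldn23 and Cldn34b2 lay below the receptor level. Cldn1, the claudin that seals the epidermal barrier, read 7.54, 7.33, 7.55 and 7.20 in shGFP and 7.16, 7.16, 7.13 and 7.09 in shMKRN1. The groups did not overlap, and the shMKRN1 arrays were much closer together (SD 0.033) than the shGFP arrays (SD 0.17). The difference was -0.27 (SE 0.078; limma adjusted p = 0.0884), and it passed without shGFP 7 (-0.33; adjusted p = 0.0242).

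Cldn6, a claudin typical of pluripotent cells and early epithelium, read 11.85, 11.93, 12.09 and 12.09 in shGFP and 11.81, 11.83, 11.95 and 11.94 in shMKRN1. The groups overlapped, with a difference of -0.11 and a 95% interval of -0.26 to 0.05. Its genomic neighbour Cldn9 differed by 0.02. Cldn4 and its neighbour Cldn3, which also act as receptors for a clostridial toxin, differed by 0.04 (95% interval -0.14 to 0.22) and 0.06 (-0.14 to 0.25). For Cldn7, whose promoter is printed above, the difference was -0.04 (95% interval -0.28 to 0.20), with shGFP values from 8.91 to 9.40 that enclosed all shMKRN1 values.

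The largest positive difference of a claudin above the receptor level was that of Cldn12. It read 8.92, 8.99, 9.10 and 9.03 in shGFP and 9.07, 9.16, 9.10 and 9.01 in shMKRN1, a difference of 0.08 (limma adjusted p = 0.534). Its groups overlapped. In all, 18 claudins had a lower and 10 a higher mean in shMKRN1. Of the 28 changes, 24 were under 0.1 in size (85.7%, against 61.4% of all genes). Every claudin had a 95% interval within 1.5-fold, as did 19482 of all 19937 genes. However, 15 of the 28 did not exceed the receptor level in either group, so their small changes do not show a stable level. Claudins of the Cldn34 family on the X chromosome are close copies of each other, so their probe sets may not separate them.

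The tight junction scaffold gave no call among its 3 genes, and no unadjusted p under 0.05. Tjp1 encodes ZO-1, which links claudins to actin. It read 10.77, 10.82, 10.96 and 10.70 in shGFP and 10.90, 10.86, 10.83 and 10.78 in shMKRN1, and its difference was 0.03 (95% interval -0.11 to 0.17; limma adjusted p = 0.848). Tjp3, which encodes ZO-3, read 7.59, 7.55, 7.59 and 7.87 against 7.66, 7.73, 7.81 and 8.05 (0.17; limma adjusted p = 0.401). The highest shGFP value, in array 7, lay above 3 of the shMKRN1 values. Occludin (Ocln) read 7.18, 7.25, 7.67 and 7.26 against 7.32, 7.30, 7.39 and 7.25 (-0.02; limma adjusted p = 0.939), and its sign turned without shGFP 5 (0.09; adjusted p = 0.422).

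No desmosome gene was called by limma out of 12, and 2 had an unadjusted p under 0.05, the desmocollins Dsc2 and Dsc3, both higher in shMKRN1. Dsc2, an adhesive cadherin of heart and simple epithelia, read 6.99, 6.90, 6.89 and 6.56 in shGFP and 7.39, 7.24, 7.002 and 6.90 in shMKRN1. Arrays shMKRN1 2 and 4 lay clear of the shGFP range, and shMKRN1 6 and 8 near its top. The difference was 0.30 (SE 0.12; limma adjusted p = 0.21). Dsc3 was below the receptor level in both groups (5.58 and 5.77).

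Plakophilin 1 (Pkp1), a plaque protein of stratified epithelia, read 6.98, 7.01, 7.02 and 7.30 in shGFP and 6.96, 6.85, 6.88 and 7.07 in shMKRN1. The groups overlapped, and the difference was -0.14 (limma adjusted p = 0.402). Desmoplakin (Dsp), which anchors keratins, differed by 0.00 (95% interval -0.29 to 0.30), desmoglein 2 (Dsg2) by 0.15 (-0.02 to 0.33), plakoglobin (Jup) by -0.12 (-0.24 to 0.01) and plakophilin 2 (Pkp2) by -0.01 (-0.19 to 0.16). The desmoglein 1 copies Dsg1b and Dsg1c are near-identical and lay below the receptor level.

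Among the connexins, 2 had higher values in all 4 shMKRN1 arrays, and neither passed the threshold. Gjc1, which encodes a gap junction protein of early embryo and heart, read 9.40, 9.45, 9.37 and 9.41 in shGFP and 9.81, 9.66, 9.57 and 9.57 in shMKRN1. The groups were 0.11 apart. The difference was 0.24 (SE 0.063), or 118% of the control level with a 95% interval of 107% to 131% (limma adjusted p = 0.059).

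Gja1, which encodes the main gap junction protein of embryonic stem cells, read 11.37, 11.45, 11.59 and 11.57 in shGFP and 11.74, 11.86, 11.76 and 11.63 in shMKRN1. Its groups were 0.04 apart. The difference was 0.25 (SE 0.069), or 119% of the control level with a 95% interval of 107% to 133% (limma adjusted p = 0.0704). Both genes passed in some other fits: Gja1 with quantile normalization (adjusted p = 0.0478) and Gjc1 with median centring (0.0371), and both with a variance trend, with array weights and with dim genes left out. None of the fits without 1 array called either gene.

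Gjb2, a connexin gene of inner ear and skin, had the largest negative difference of a connexin above the receptor level. It read 7.89, 7.46, 7.14 and 7.41 in shGFP and 7.44, 7.15, 7.21 and 7.40 in shMKRN1. The shGFP range enclosed every shMKRN1 value, and the difference was -0.18 (limma adjusted p = 0.553). None of the 15 connexins was called by limma, and 3 were higher and 1 lower at an unadjusted p under 0.05, of which Gja5 and Gjd4 lay below the receptor level.

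**Figure D3:**
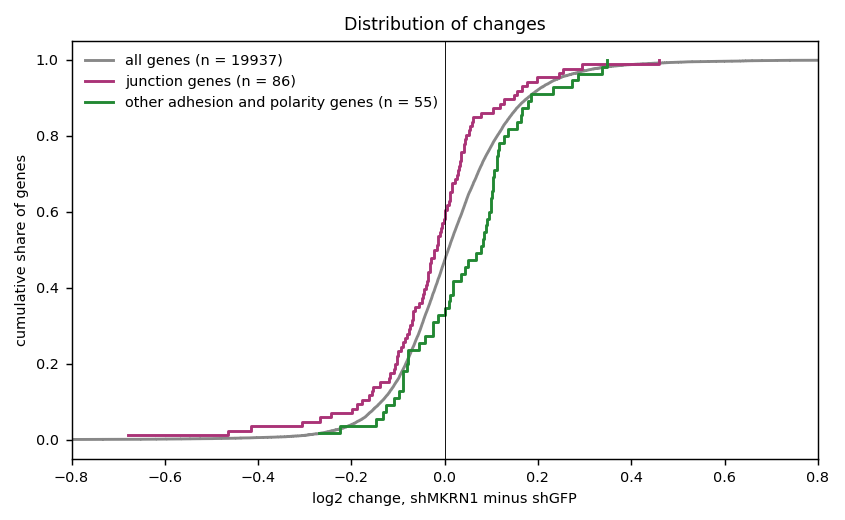
Cumulative share of genes against log2 change, shMKRN1 minus shGFP, for all 19937 genes (grey), the 86 junction genes (purple) and 55 other adhesion and polarity genes (green). The medians are 0.01, -0.02 and 0.08, and the axis leaves out the few changes beyond 0.8.

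The fits without single arrays set the limits of these calls. With all arrays 2 members were called, and with 1 array left out between 0 and 3. The count was 0 without shGFP 3 and without shMKRN1 6 by limma (11 members at an unadjusted p under 0.05 each time), in fits where the share of all genes called also dropped, to 1.63% and 1.55%. It was 1 without shGFP 1 or 5 or shMKRN1 2, 4 or 8, and 3 without shGFP 7. Without shGFP 7 and shMKRN1 8, the arrays that stood apart, 4 were called: Cdh9, Snai2 and Cldn1 lower and Gja1 higher. Members varied with these arrays too. The median deviation of the 86 members from their shGFP means was highest in shGFP 7 (0.07) and shMKRN1 8 (0.03), and lay between -0.08 and 0.01 in the other 6 arrays.

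**Figure D4:**
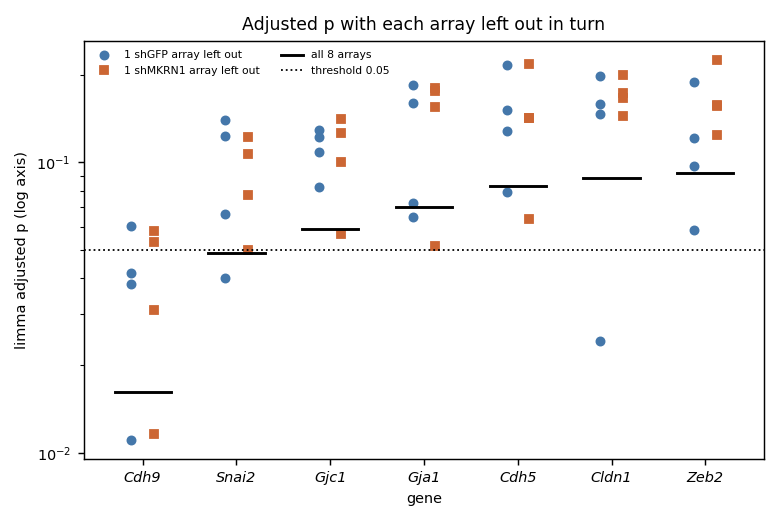
Limma adjusted p (log axis) of 7 junction genes with all 8 arrays (black line) and with each shGFP array (blue circles) or shMKRN1 array (orange squares) left out; the dotted line is the threshold of 0.05. Cdh9 lies on both sides of the threshold (0.0111 to 0.0605), as do Snai2 (0.04 to 0.14) and Cldn1 (0.0242 to 0.2).

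A wider list of adhesion, polarity and epithelial state genes that are not members was read beside them. Of 55 measured, 4 were called (7.27%, against 4.49% of all genes), 3 higher and 1 lower. The median change was 0.08, beside 0.01 for all genes. The list held few silent genes: 53 of 55 exceeded the receptor level, against 14036 of 19937 genes. With genes above the median level only, 6 of 43 listed genes were called, beside 16% of all 9968 genes, whose median change was 0.04. With all genes fitted, the 3 that rose belong to polarity complexes, which place the junction belt at the top of an epithelial cell. A higher mean in shMKRN1 was seen for 13 of 14 polarity genes, 37 of all 55 listed genes and 10519 of all 19937 genes. It was also seen for 6 of 7 tight junction plaque genes and 5 of 6 desmosome-associated and keratin genes. The nectin and JAM group had 3 of 8 and the epithelial and mesenchymal state group 4 of 11. Prkcz, an atypical protein kinase C, rose by 0.35 (SE 0.079; limma adjusted p = 0.0381), from 8.36 ± 0.15 to 8.71 ± 0.087 (SD, n = 4 each). Its 2 probe sets disagreed, and their mean gave 0.17 (adjusted p = 0.149). Llgl2, a basolateral polarity gene, rose by 0.28 (adjusted p = 0.0463), and Pard6b, a scaffold that binds atypical protein kinase C, by 0.27 (adjusted p = 0.0446).

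Jam2, an immunoglobulin-type junctional adhesion molecule, read 11.50, 11.52, 11.39 and 11.34 in shGFP and 11.27, 11.20, 11.12 and 11.08 in shMKRN1. It fell by 0.27 (SE 0.063; limma adjusted p = 0.0423), and its groups did not overlap. All 4 calls lay near the threshold, and leaving out 1 array often lost them. The changes kept their sign: Jam2 -0.30 to -0.24, Llgl2 0.24 to 0.34, Pard6b 0.24 to 0.31 and Prkcz 0.29 to 0.41. Without shGFP 1, 3 were called. None of the 55 genes was called without shGFP 3 or 5 or shMKRN1 2, 4 or 6. In those fits 10 to 14 of them had an unadjusted limma p under 0.05, and 1.55% to 3.76% of all genes were called. Without shMKRN1 8, 1 was called, and 2 without shGFP 7. One of those 2, Crb2, was not among the 4.

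The partners of E-cadherin did not pass. Ctnnb1, beta-catenin, differed by 0.10 (limma adjusted p = 0.245) with groups that did not overlap. Ctnnd1, p120-catenin, differed by -0.13 (adjusted p = 0.201), likewise without overlap. Of the other fits, only that with a variance trend called Ctnnb1. Of the splicing and transcription factors that maintain an epithelial state, Esrp1 differed by -0.08 (adjusted p = 0.65), Grhl2 by -0.15 (0.16) and Ovol2 by -0.03 (0.874). The groups did not overlap for Grhl2, which passed with quantile normalization only. The mesenchymal filament gene Vim differed by 0.00 (95% interval -0.17 to 0.17). Of the keratins of simple epithelium, Krt8 and Krt18 varied more within groups than between them: Krt8 ranged from 12.03 to 12.75 in shGFP and from 12.24 to 12.83 in shMKRN1 (0.15; adjusted p = 0.693), and Krt18 differed by 0.10 (adjusted p = 0.825). Krt19, another such keratin, went from 8.59 ± 0.17 to 8.93 ± 0.20 (SD, n = 4 each) with groups that did not overlap, and its difference of 0.34 (SE 0.11; limma adjusted p = 0.118) did not pass.

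**Figure D5:**
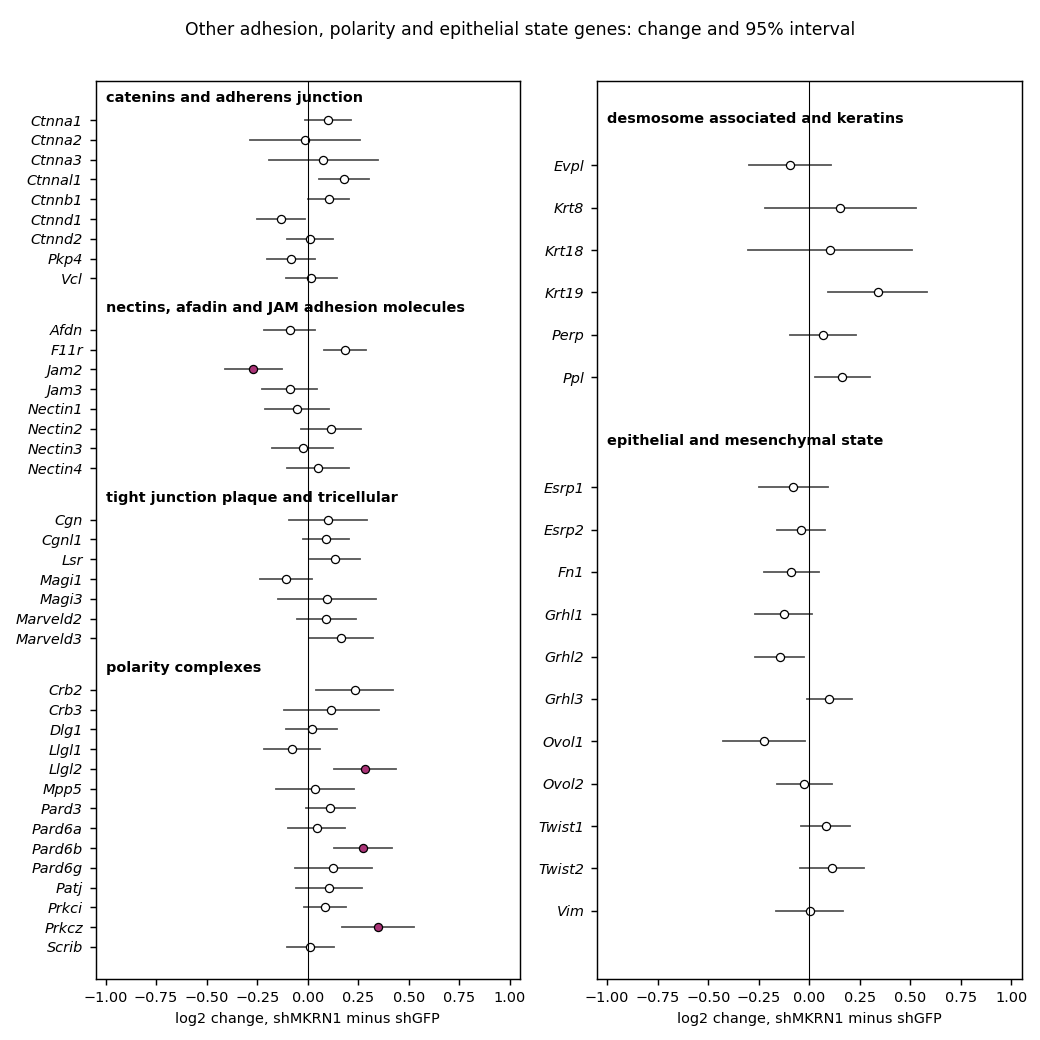
Log2 change, shMKRN1 minus shGFP, of the 55 adhesion, polarity and epithelial state genes that are not members, by role, with 95% intervals from limma. Filled circles mark the 4 genes called at an adjusted p under 0.05: Prkcz, Llgl2 and Pard6b to the right of 0 and Jam2 to the left.

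Markers of other cell types that such cultures can hold were read beside these results. Of 5 measured genes of the streak and mesoderm, where Snai1 acts, Mixl1, Eomes and Lhx1 rose; the mean level of the 5 lay between 6.85 and 7.11 in shGFP and between 7.55 and 7.86 in shMKRN1, with Mesp1 not above the receptor level. Of 10 fibroblast markers, Col1a1 (0.37) and Pdgfrb (0.35) rose, the mean level lay between 6.78 and 6.92 in shGFP and between 6.83 and 7.03 in shMKRN1, and Lum, Postn and Prrx1 did not exceed the receptor level. Of 8 trophectoderm markers Tfap2c rose (0.44), with mean levels of 7.77 to 8.12 and 7.95 to 8.19, and Elf5 did not exceed the receptor level. None of 8 primitive endoderm markers was called (7.91 to 8.11 and 7.88 to 8.06). The part of these cells in the junction results was not tested, and in a bulk sample fewer cells of a type and less RNA per cell cannot be told apart.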

How the data were processed

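Total RNA samples were measured on 8 Affymetrix gene arrays. The authors deposited log2 values of 34760 probe sets, computed with RMA per the submitters' processing notes (no version is given). Values ranged from 1.94 to 14.5. The number of arrays limits the precision. Probe sets with exactly 1 symbol in the supplied platform annotation (21640) were used, and the row with the highest mean stood for a symbol, which left 19937 genes. Groups came from the sample titles. Changes were fitted in R 4.3.3 with limma 3.58.1 (group as the only factor, moderated by eBayes; 6 residual and 4 prior degrees of freedom), two-sided, with no filter and no covariate. Single values were also tested by exact two-sided permutation. The fit was tested on simulated data.

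The members and the gene lists were chosen with earlier results of these data known. Named with every array's value were called members, Cdh1, Cdh2, Epcam, Ocln, Tjp1 and the repressors, members above the receptor level with an unadjusted p under 0.05, and the largest change of each sign per role. Cldn6, Cldn4, Cldn3, Cldn7, Cldn9, Dsp, Dsg2, Jup, Pkp2, Krt19, the neighbours Cdh8, Cdh10 and Cdh12, and Crb2 were picked once their values were known. The receptor level is the 95th percentile, over genes with symbols starting Olfr or Vmn, of the higher group mean. The alternatives were quantile normalization, median centring, genes above the median level only, adjustment over every probe set, the mean of a gene's probe sets, a variance trend, array weights and leaving out arrays. Promoter sequences came from RefSeq, and all 86 members matched its gene table by Entrez number.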

Additional observations from a re-analysis of the deposited data

Results flagged for a closer look

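Single arrays that stood apart from the other arrays of their group by Dixon's ratio were found for 3 of 27 genes named with a test, out of 54 groups of 4 arrays examined, where chance alone marks about 1 group in 20. Occludin (Ocln) read 7.67 in shGFP 5, while the other shGFP arrays lay between 7.18 and 7.26. Pkp1 read 7.30 in shGFP 7, against 6.98 to 7.02 in the others. Tjp3 read 7.87 in shGFP 7, against 7.55 to 7.59. Array shGFP 7 is also the array that stood apart on the leading principal component over all genes.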

How the results depend on the processing

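The fall of Mkrn1 passed in all 16 alternatives (adjusted p from 1.7e-05 to 0.00569). The count of 2 called members became 1 with adjustment over every probe set, 5 with a variance trend, 11 with array weights, 4 without shGFP 7 and shMKRN1 8, and 0 to 3 without single arrays. The share of all genes called moved in the same fits, from 4.49% to 4.23%, 7.76%, 13.8%, 4.6% and 1.55% to 4.27%. The count of members stayed at 2 with quantile normalization and median centring, but with Gja1 or Gjc1 in place of Snai2. With genes above the median level only, 24 members were fitted, 3 were called (Cdh3, Gja1 and Gjc1) and the median change of those members was 0.038. In that fit 16% of all 9968 genes were called, and their median change was 0.041. Without single arrays the median of all 86 lay between -0.05 and -0.01. The 4 calls in the wider list became 7 with a variance trend, 8 with array weights and 0 to 3 without single arrays, beside the same shares of all genes. The causes of these shifts were not tested. The fit with dim genes left out also adjusted p-values over 9968 genes instead of 19937, so it cannot single out the dim genes. No paired analysis was possible because the groups share no array number; whether neighbouring numbers (1 and 2, 3 and 4, and so on) mark a shared transfection is not stated in the labels, and samples were not paired by their order. A shift common to most genes is not visible after RMA, and dim members can change without a visible difference.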

Other observations

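The junction genes also differed between arrays within a group, and these values, chosen after they were seen, belong to no comparison. Of the 51 members above the receptor level, 22 had their highest shGFP value in array 7 and 12 in array 5, and 22 had their highest shMKRN1 value in array 2 and 20 in array 8. Desmoplakin (Dsp) was highest in shGFP 1 (9.68) and shMKRN1 2 (9.67), with the other arrays between 9.10 and 9.47. Claudin 4 (Cldn4) was likewise highest in shGFP 1 (10.87) and shMKRN1 2 (10.92), and so were the simple epithelial keratins Krt8 (12.75 and 12.83) and Krt18 (11.67 and 11.58). Claudin 6 (Cldn6) and claudin 7 (Cldn7) had their lowest shGFP values, 11.85 and 8.91, in array 1.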
